A study of Rattus norvegicus with 36 samples.

Results

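Untrained soleus muscle was compared between day 14 and day 3 after a contusion of the spinal cord, to show which changes of the acute phase had resolved after 2 weeks and which had not. The comparison used 12 of the 36 arrays of the series, the 6 titled SCI14d and the 6 titled SCI3d, all labelled as without treadmill training. The muscle is the left soleus of adult female Sprague Dawley rats, and each array is 1 rat. Both SCI groups had a laminectomy under ketamine and xylazine, a moderate contusion of the thoracic cord from a dropped weight, analgesics in the days after surgery, single housing and access to a soft dough diet. The controls (CTR, 6 arrays) were uninjured rats of the same age, and a group of laminectomy without contusion is not part of the design. A different set of rats was killed on each day, so that a change between days is a difference between groups of rats and not a course within a rat. Effects of the injury, of the surgery and care, and of the days since anaesthesia cannot be told apart. The 6 untrained arrays of day 8 (SCI8d) are given where they show when a change took place.

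The soleus is a slow postural muscle of the calf that burns fat and ketone bodies in its mitochondria and is loaded almost all the time a rat stands. After a contusion the hindlimbs are unloaded and the nerve input changes, and the muscle loses mass through the ubiquitin-proteasome system, in which ligases tag proteins and the proteasome, a barrel of subunits with a regulatory cap, degrades them. Stressed muscle also makes chaperones, ribosomes and tRNA synthetases, and later remodels its connective tissue, for which cells divide and secrete collagens and the proteases that cut them.

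The signal of a probe set is a linear intensity without unit, compared on the log2 scale in limma. A fold change below is day 14 minus day 3 on the log2 scale with its SE (n = 6 arrays per group) unless another pair of groups is named, and a gene is called changed at an adjusted p under 0.05, adjusted over all 31042 probe sets. A gene is read from 1 probe set, the brightest one over all arrays. Signals are given for each group as the lowest, the median and the highest of its 6 arrays. All arrays had been scaled to the same trimmed mean, but their medians still differed between the days. The SCI3d arrays had medians of 166.4 to 187.4, the SCI14d arrays 200.7 to 220.5 and the controls 190.1 to 198.3, and the median change over all 14217 genes was 0.15. SCI14d replicates 2 and 4 had the lowest mean correlation with their own group, 0.916 and 0.896, against 0.929 to 0.940 for the other 4. The GAPDH 3' to 5' signal ratio was 1.347 in SCI14d replicate 4 and 1.06 to 1.165 in the other SCI14d arrays. It was 1.612 in CTR replicate 3 and 1.074 to 1.161 in the other controls. The mean log2 signal of muscle fibre markers was 14.471 in SCI14d replicate 4 and 15.02 or more in the others. That of macrophage markers was 11.715, the highest of its group. RNA quality and tissue make-up as sources were not tested. Some, but not all, of the results that rest on replicates 2 and 4 are named. The RNA is of whole muscle, in which fewer cells of a type and less RNA per cell cannot be told apart.

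Between day 3 and day 14, 4014 of 31042 probe sets changed (12.9%), 2481 upward and 1533 downward. By gene, 1518 of 14217 rose (10.7%) and 970 fell (6.82%). This split depended on how the arrays were brought to a common scale. As deposited 61.0% of the called genes rose, after quantile normalization 49.9%, after centring each array on its median 23.4% and after scaling to the Gapdh signal 88.2%. Under all 4 scalings alike 604 genes rose (4.25%) and 265 fell (1.86%), and for counts of genes that rose or fell in a group between the days the number that holds under all 4 is given as well.

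**Figure D1:**
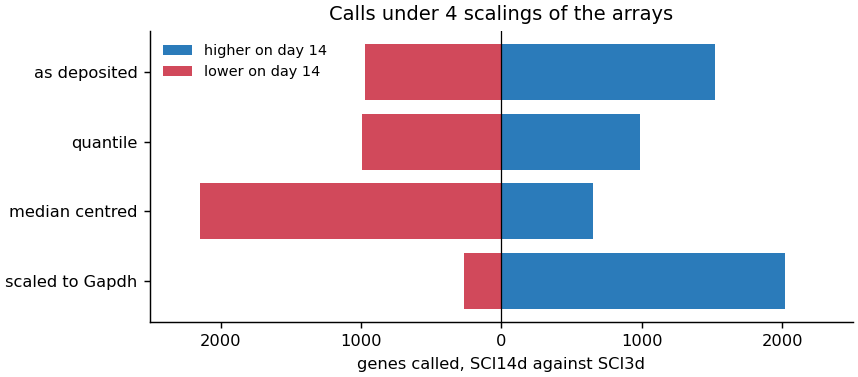
Genes called between SCI14d and SCI3d (x axis, number of genes, lower to the left and higher to the right) under the deposited scaling and 3 other scalings of the arrays (y axis). The deposited scaling gave 1518 higher and 970 lower genes, median centring 655 higher and 2146 lower, and scaling to Gapdh 2019 higher and 269 lower.

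On day 3, 1277 genes were higher than in CTR (8.98%) and 1788 lower (12.6%). On day 14, 264 were higher (1.86%) and 368 lower (2.59%). The 3065 genes called on day 3 were followed to day 14. Of these, 2912 lay closer to CTR on day 14 than on day 3, and the median share of the day 3 difference that was left was 49.4% on day 8 and 33.6% on day 14. A gene was taken as returned when it was called between day 3 and day 14 back toward CTR and was not called against CTR on day 14, which held for 1395 genes (45.5%), 631 of them raised on day 3 and 764 lowered. It was taken as retained when it was still called against CTR on day 14 in the same direction and was not called between the days, which held for 278 genes (9.07%), 76 raised and 202 lowered. Another 43 were partly returned, called in both comparisons. For 1345 genes (43.9%) neither comparison passed the test, so that they are undetermined.

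Not being called against CTR does not show that a gene was at the control level. The 95% interval of the day 14 difference left out a value as large as 50% of the day 3 difference for 573 of the 1395 returned genes. The SCI3d arrays enter both the choice of the acute genes and the change from day 3, with opposite sign. Choosing genes by their day 3 difference by itself favours a smaller difference on day 14. This bears on the returned genes, on the number closer to CTR and on the median shares left. How much of the return it makes up was not tested. Under all 4 scalings alike 466 genes were returned, 74 retained and 233 undetermined. The retained genes also depended on single arrays: among probe sets the count was 436 with all arrays and moved by over 1.5 times without CTR replicate 1 (204), 2 (260) or 6 (256), or without SCI14d replicate 2 (764), 3 (261), 4 (262) or 6 (202).

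**Figure D2:**
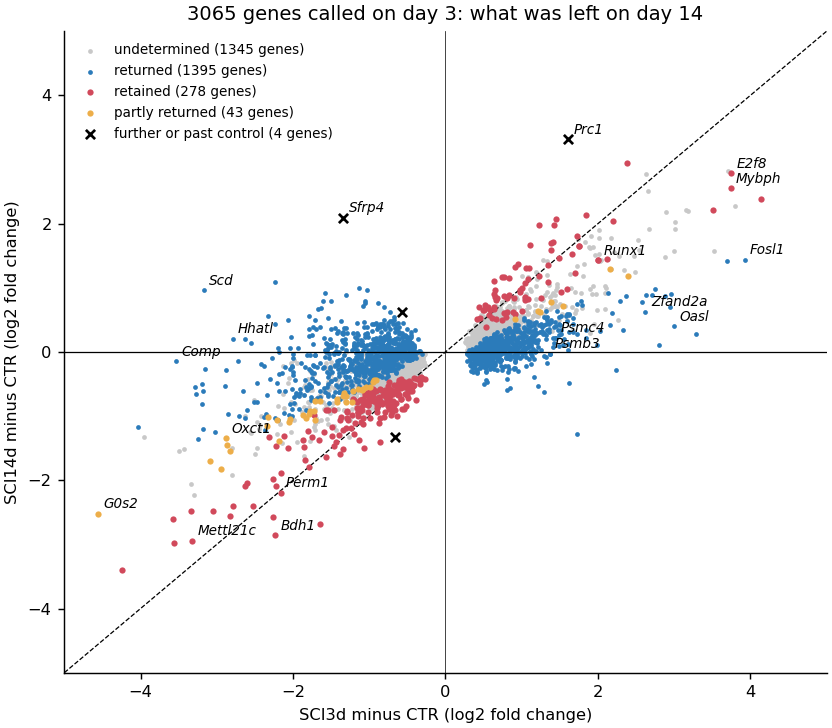
Each point is 1 of the 3065 genes called on day 3, with the log2 fold change against CTR on day 3 (x axis) and on day 14 (y axis), coloured by its class. Points on the horizontal line are at the control level on day 14, points on the dashed diagonal kept the whole day 3 difference, and the CTR arrays are shared by both axes. Returned genes lie near the horizontal line and retained genes such as Perm1 and Mettl21c near the diagonal.

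The proteasome list returned as a whole. All 31 measured subunits and activators were higher than CTR on day 3, all 31 fell by day 14, and none was called against CTR on day 14, with median fold changes against CTR of 0.92 on day 3, 0.20 on day 8 and 0.05 on day 14. Of the 31, 23 fell under all 4 scalings. Psmb3, a subunit of the catalytic core, had signals of 14830, 17930 and 23020 in SCI3d, 5862, 6960 and 7321 in SCI14d and 6035, 7102 and 7580 in CTR. Every day 14 array lay below every day 3 array and 5 of 6 lay within the CTR range, with a fold change of -1.40 ± 0.12, adjusted p = 9.81e-09 and an exact permutation p of 0.00216, the smallest that 6 against 6 arrays can give. The core subunit Psma2 fell by 1.01, and Psmc3 and Psmc4, ATPases of the cap that unfold the substrate, fell by 0.93 and 1.22 (adjusted p = 4.04e-08, adjusted p = 2.8e-08 and adjusted p = 4.04e-08). Psmd8, a non-ATPase cap subunit, went from 7815, 11880 and 20010 to 3182, 4430 and 5346, against 5097, 5503 and 6066 in CTR. On day 14 it was below all CTR arrays in 5 of 6 rats (-0.39 ± 0.16, adjusted p = 0.176 against CTR).

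Zfand2a, an arsenite-inducible protein that works with the proteasome, had one of the largest falls of the class. Its signal was 1443, 3052 and 7504 in SCI3d, 539.5, 733 and 1669 in SCI14d and 401, 453 and 736 in CTR. The highest day 14 array still overlapped the day 3 range, and the fold change was -2.0 ± 0.30, adjusted p = 4.09e-05. Of the 21 measured ligases that tag muscle proteins and regulators of atrophy, 2 rose and 2 fell between the days (0 and 1 under all 4 scalings). These counts are near the shares of all genes, 10.7% and 6.82%. Trim63, the sarcomere ligase MuRF1, had 8196, 9078 and 13050 in SCI3d, 5274, 7435 and 9383 in SCI14d and 3854, 5236 and 5638 in CTR, and is undetermined, with -0.43 ± 0.18, adjusted p = 0.115 from day 3 and 0.52 ± 0.18, adjusted p = 0.105 against CTR. Trim63 was 1 of the 4 among them that were higher than CTR on day 3, and its day 14 signals lay between the other groups and overlapped both. Asb2, a ligase adaptor of muscle cells, stayed low instead. Its signals were 16460, 20610 and 24520 in CTR, 5330, 10690 and 13410 in SCI3d and 6804, 7883 and 16210 in SCI14d, with no day 14 array inside the CTR range (-1.28 ± 0.25, adjusted p = 0.00364 against CTR).

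Genes for making ribosomes and charging tRNAs returned alongside. Of 29 genes of ribosome biogenesis, 25 were higher than CTR on day 3 and 21 fell by day 14 (9 under all 4 scalings), with medians against CTR of 0.82 and 0.13. Of 19 aminoacyl-tRNA synthetases, which load amino acids onto tRNA, 13 were higher on day 3 and 13 fell (5 under all 4 scalings). Of 29 translation initiation factors 16 were higher and 15 fell (3 under all 4 scalings), and 11 of the 16 were classed as returned. No gene of these 3 lists rose. Mybbp1a, a nucleolar protein, went from 4430, 6822 and 8304 to 1929, 3027 and 3700 with CTR at 2727, 2900 and 3082. Gar1, a protein of the particles that modify ribosomal RNA, went from 1417, 1994 and 3242 to 724, 945 and 1256 with CTR at 788, 942 and 1112. In both genes all day 14 arrays lay below all day 3 arrays and around the CTR range, with fold changes of -1.15 ± 0.19, adjusted p = 8.34e-05 and -1.18 ± 0.21, adjusted p = 0.000338. The asparaginyl and lysyl synthetases Nars1 and Kars1 fell by 0.89 and 0.95 and the initiation factor subunit Eif2b3 by 0.84, without overlap between the days (exact permutation p = 0.00216 for each). Cytosolic ribosomal proteins, which are made by a separate set of genes, followed the scaling: 2 of 21 were higher on day 3 and 6 fell by day 14 as deposited, while 21 fell after median centring and 0 after quantile normalization or scaling to Gapdh.

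**Figure D3:**
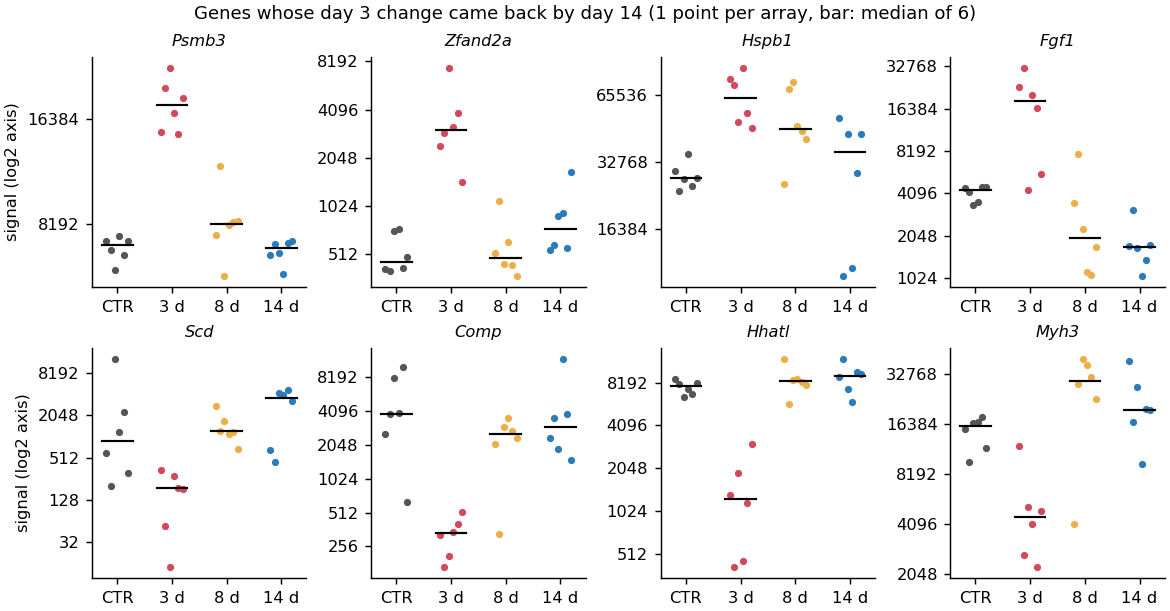
Signals of 8 genes on each array of CTR, SCI3d, SCI8d and SCI14d (y axis, linear signal on a log2 axis), with 1 point per rat and a bar at the median of 6. Psmb3, Zfand2a, Hspb1 and Fgf1 were high on day 3, and Scd, Comp, Hhatl and Myh3 low, and for Psmb3, Fgf1, Scd, Comp and Hhatl no day 14 array overlaps a day 3 array.

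The stress programmes of day 3 returned in part. Among 22 ATF4 targets, genes that cells switch on when amino acids are short, 5 were higher than CTR on day 3 and 5 fell by day 14 (4 under all 4 scalings), while 1 rose (also under all 4). Atf4 itself, the transcription factor, went from 14770, 25280 and 33910 to 10480, 12260 and 16230 with CTR at 12270, 14000 and 19680. Sesn2, a sensor of leucine that restrains growth signaling, went from 236, 1065 and 2460 to 217, 348 and 427 with CTR at 256, 361 and 528. In both the day 3 arrays were widely spread and overlapped day 14, and the fold changes were -0.94 ± 0.16, adjusted p = 0.000192 and -1.51 ± 0.32, adjusted p = 0.00151.

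Of 22 heat shock proteins and chaperones, 5 were higher on day 3 and 11 fell by day 14, but only 3 under all 4 scalings and 3 without SCI14d replicates 2 and 4, and the median over the list went from 0.20 to -0.30 against CTR. Hspb1, a small heat shock protein that guards the contractile apparatus, had 46690, 63830 and 87580 in SCI3d, 9983, 36510 and 51960 in SCI14d and 24340, 27680 and 35550 in CTR. The day 14 arrays ran from far below to above the control range, and without SCI14d replicates 2 and 4, the lowest for it, the fall of 1.27 was no longer called (-0.61, adjusted p = 0.083). Flnc, the muscle filamin of the Z-disc, behaved likewise, with -1.0 ± 0.23, adjusted p = 0.00374, and -0.52, adjusted p = 0.0705 without those replicates. Among 23 genes of the NRF2 pathway, metallothioneins and glutathione, 5 were higher than CTR on day 3 and 1 lower. By day 14, 10 fell and 0 rose (4 fell under all 4 scalings), and only 3 of the list were classed as returned. Txnrd1, which reduces thioredoxin, fell from 4053, 5223 and 6863 to 1631, 2151 and 3543, and Gsr, which reduces glutathione, from 846, 1174 and 2606 to 450.2, 607 and 670.4. The CTR arrays held 2152, 2747 and 3495 for Txnrd1 and 755, 988 and 1141 for Gsr, so that Gsr ended below every control (-0.72 ± 0.19, adjusted p = 0.035 against CTR), a call that was lost in 13 of 32 alternative settings.

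Among single genes with the largest falls, Fgf1, an acidic fibroblast growth factor, had signals of 4311, 18540 and 32150 in SCI3d, 1054, 1704 and 3109 in SCI14d and 3400, 4329 and 4572 in CTR. All day 14 arrays lay below all day 3 arrays (-3.01 ± 0.50, adjusted p = 0.000116) and also below all CTR arrays (exact permutation p = 0.00216), although limma did not call the latter difference (-1.28 ± 0.50, adjusted p = 0.151). Ampd3, an AMP deaminase, fell from 17320, 23790 and 26230 to 4295, 5252 and 11810 with CTR at 6373, 9718 and 12610. Its days did not overlap either (-1.91 ± 0.28, adjusted p = 3.1e-05), and 4 of the 6 day 14 arrays were below every control. Fosl1, an AP-1 subunit, and Oasl, an interferon-induced protein, fell by 2.49 and 2.59 with overlap between the days. The fall of Fosl1 was not called without SCI14d replicates 2 and 4. Fosl1 was still at 49.0, 207 and 885 on day 14 against 54.0, 80.9 and 157 in CTR, above every control in 4 of 6 rats (1.44 ± 0.62, adjusted p = 0.201 against CTR). Myog, a myogenic transcription factor that also follows loss of nerve activity, went from 2955, 10880 and 17300 to 3289, 4451 and 6264 with CTR at 3250, 3332 and 4294 (-1.03 ± 0.29, adjusted p = 0.0154, lost under another scaling).

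The promoters of all matched members of the gene lists, called or not, were searched for a few short letter patterns, in the 250 bases before the start of each gene in RefSeq, on both strands. The 8 patterns were GAANNTTC (heat shock element), TGANTCA (AP-1), TTTGGCGC (E2F), TTTGAA (CHR), CCAAT, TCAAGGTCA (ERR), CAGCTG (E-box) and TGATGNAA, where N is any base. In the promoters shown, no letters of one pattern in capitals overlapped another pattern in capitals. The match in Tars1 shares its last letters with CAGCTG, which is not in capitals there. The heat shock element stood in 11 of 20 promoters of the chaperone list (55.0%) and in 7.02% of all 27457 promoters. TGATGNAA, letters like those that ATF4 binds with its partners, stood in 5 of 17 promoters of tRNA synthetases (29.4%), in 4 of 21 of the ATF4 targets (19%) and in 3.27% of all. In the cell cycle list, described further on, both TTTGAA (the CHR pattern) and CCAAT stood in 8 of 25 promoters (32%), against 5.76% of all. Not every list held the pattern its name would call for: TGANTCA stood in 0 of 15 promoters of AP-1 and immediate early genes, TCAAGGTCA in 0 of 4 of ketone body oxidation and 0 of 16 of fat oxidation. The heat shock element stood in 6.9% of proteasome promoters. Matches are a description of letters and no evidence of binding. The promoters of Hspb1 and Tars1, classed as returned, of Cdk1, which rose, and of Cdc20, whose rise was called on 1 of its 5 probe sets, are shown because each holds its list's pattern. They are written 5′ to 3′ on the strand of the gene in build GRCr8, with the matches in capitals (GAANNTTC in Hspb1, TGATGNAA read on the other strand in Tars1, TTTGAA and CCAAT in Cdk1 and Cdc20 on either strand), and they were chosen after the values were seen.
Hspb1, chr12:26432302-26432551, minus strand: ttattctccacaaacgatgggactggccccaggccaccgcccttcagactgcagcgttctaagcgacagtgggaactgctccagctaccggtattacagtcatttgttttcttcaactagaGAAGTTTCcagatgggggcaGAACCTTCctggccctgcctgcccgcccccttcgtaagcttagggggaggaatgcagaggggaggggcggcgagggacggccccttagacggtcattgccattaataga
Tars1, chr2:62114803-62115052, minus strand: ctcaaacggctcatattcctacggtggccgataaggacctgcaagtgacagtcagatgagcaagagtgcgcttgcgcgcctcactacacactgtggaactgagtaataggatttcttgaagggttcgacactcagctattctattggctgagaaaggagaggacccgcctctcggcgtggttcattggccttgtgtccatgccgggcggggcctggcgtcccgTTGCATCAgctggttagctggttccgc
Cdk1, chr20:19265043-19265292, plus strand: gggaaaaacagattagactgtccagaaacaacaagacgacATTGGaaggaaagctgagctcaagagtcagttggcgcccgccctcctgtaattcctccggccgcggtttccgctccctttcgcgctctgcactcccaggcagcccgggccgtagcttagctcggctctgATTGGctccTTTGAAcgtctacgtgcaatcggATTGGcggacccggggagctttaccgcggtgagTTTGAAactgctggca
Cdc20, chr5:137255800-137256049, minus strand: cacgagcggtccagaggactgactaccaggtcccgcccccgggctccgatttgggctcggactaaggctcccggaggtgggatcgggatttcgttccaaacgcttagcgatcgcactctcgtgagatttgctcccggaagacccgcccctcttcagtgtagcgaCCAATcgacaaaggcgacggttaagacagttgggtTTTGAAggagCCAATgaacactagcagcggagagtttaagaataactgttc
Tars1, the threonyl-tRNA synthetase, fell from 2153, 2668 and 3817 to 1288, 1541 and 1722 without overlap (-0.90 ± 0.15, adjusted p = 0.00019), and CTR held 1170, 1296 and 1746.

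Genes lowered on day 3 that came back were of many kinds. Scd, the desaturase that makes monounsaturated fatty acids, had 13.9, 188 and 339 in SCI3d, 436, 3645 and 4643 in SCI14d and 201, 888 and 13150 in CTR. The days did not overlap (4.13 ± 0.83, adjusted p = 0.001), but the wide control range overlapped both. Hhatl, a muscle protein of the sarcoplasmic reticulum related to acyltransferases, was more even within groups, with 409, 1241 and 3013 in SCI3d, 5971, 9198 and 11930 in SCI14d and 6467, 7699 and 8663 in CTR. All day 3 arrays were below all others, and the rise was 3.0 ± 0.33, adjusted p = 1.61e-07. Myoz3, a Z-disc protein, went from 628, 954 and 2076 to 1946, 3416 and 4999 with its highest day 14 array below the CTR median, CTR being at 3393, 5524 and 8249 (1.70 ± 0.29, adjusted p = 0.000158 from day 3, -0.78 ± 0.29, adjusted p = 0.131 against CTR).

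Of 9 tendon and cartilage markers, 6 were lower than CTR on day 3 and 4 rose by day 14 (2 under all 4 scalings, and 2 without SCI14d replicates 2 and 4). Comp, a matrix protein of tendon, went from 166, 335 and 520.1 to 1503, 2955 and 12000 with CTR at 637, 3879 and 10080. Tnmd, the tendon protein tenomodulin, went from 112, 1058 and 1971 to 2173, 3674 and 4924 with CTR at 884, 4829 and 11190. In both the day 14 arrays were all above the day 3 arrays and within the wide control range or at its edge (3.39 ± 0.61, adjusted p = 0.000308 and 2.16 ± 0.60, adjusted p = 0.0146). The rise of Tnmd was not called without SCI14d replicates 2 and 4. The summed signal of the 9 markers was 14880 to 33620 in SCI3d, 48100 to 72310 in SCI14d and 15450 to 93660 in CTR. The part of tendon tissue taken along with the muscle in these values was not tested.

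Some genes of sugar use and insulin signaling came back as well. Of 21 genes of glycolysis and glycogen 9 were lower than CTR on day 3 and 1 higher, 6 rose by day 14 (3 under all 4 scalings), and on day 14 1 was lower and 1 higher than CTR. Slc2a4, the insulin-dependent glucose transporter GLUT4, went from 3658, 8303 and 12140 to 7989, 15540 and 20190 with CTR at 16480, 18100 and 20640, and Pgm1, which links glycogen to glycolysis, from 3542, 6835 and 10620 to 9081, 12420 and 17130 with CTR at 10250, 11590 and 14960. Their day 14 arrays mostly lay above the day 3 arrays, and the rises were 1.0 ± 0.26, adjusted p = 0.00944 and 0.96 ± 0.21, adjusted p = 0.00281. In the IGF and insulin list 5 of 23 genes rose, all 5 under all 4 scalings, and 2 fell (1 under all 4). Igfbp5, an IGF binding protein, went from 3224, 3351 and 5758 to 6871, 16240 and 20680 with CTR at 5555, 8079 and 12590, and Deptor, an inhibitor of mTOR, from 845, 1129 and 1212 to 1843, 2409 and 3994 with CTR at 1587, 2104 and 2517. For both all day 14 arrays were above all day 3 arrays (1.80 ± 0.35, adjusted p = 0.000657 and 1.25 ± 0.22, adjusted p = 0.000185), as they were for Igf2r, the receptor that clears IGF2 (1.09 ± 0.21, adjusted p = 0.000533).

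Myosin and junction genes gave mixed results. Myh3, annotated as embryonic myosin heavy chain, went from 2228, 4487 and 12020 to 9434, 20020 and 39380 with CTR at 9621, 15910 and 18140 (2.20 ± 0.41, adjusted p = 0.000474), with 5 of 6 day 14 arrays above all day 3 arrays. The myosin heavy chains are near-identical in sequence, and cross-hybridisation of its probes was not tested. Chrna1, a subunit of the acetylcholine receptor that denervated fibres usually raise, was lower than CTR on day 3. It had 163, 349.8 and 877 in SCI3d, 406, 713 and 9179 in SCI14d and 1459, 1635 and 1807 in CTR, so that 5 of 6 rats were still below every control on day 14 and 1 was above. Its class of returned (1.58 ± 0.46, adjusted p = 0.0191) rests on that rat, SCI14d replicate 4, and without it the change was 0.95, adjusted p = 0.0634. It was also not called without SCI3d replicate 1 (1.35, adjusted p = 0.0558). In the TGF-beta and BMP list of 32 genes 2 rose and 1 fell (2 and 0 under all 4 scalings), against 10.7% and 6.82% of all genes. Inhba, a subunit of activin, rose by 1.2 (adjusted p = 0.0138) on its brightest probe set and was at -0.15 on another, Smad4, the shared Smad, fell by 0.45 (adjusted p = 0.0223) with the call lost after scaling to Gapdh (-0.26, adjusted p = 0.438) and without SCI14d replicate 1 (-0.37, adjusted p = 0.0709) or 3 (-0.41, adjusted p = 0.0524), and Smad1, which carries BMP signals, is undetermined (-0.24 ± 0.15, adjusted p = 0.317).

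**Figure D4:**
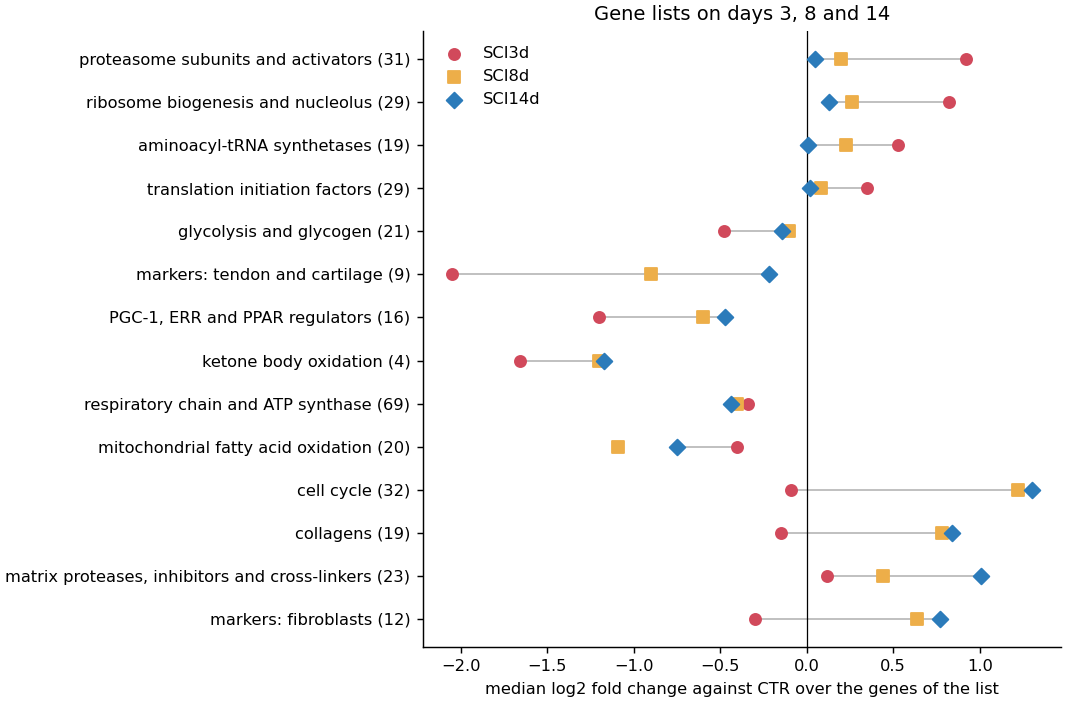
Median log2 fold change against CTR (x axis) over the measured genes of 14 lists (y axis, number of genes in brackets) on days 3, 8 and 14, all against the same 6 CTR arrays. The proteasome, ribosome and tRNA lists go from above 0 to near 0, ketone and respiratory lists stay below 0, and the cell cycle, collagen, matrix protease and fibroblast lists lie above 0 on days 8 and 14 but not, or hardly, on day 3.

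Ketone body use did not resolve. All 4 measured genes of ketone body use were lower than CTR on both day 3 and day 14, and all 4 were so on day 14 under all 4 scalings. Bdh1, which oxidizes hydroxybutyrate, had signals of 825, 1440 and 2043 in CTR, 127, 323 and 768 in SCI3d and 72.1, 182 and 616 in SCI14d. Acat1, the last enzyme of the path, had 17770, 24770 and 28610 in CTR, 12460, 14230 and 16480 in SCI3d and 8435, 11870 and 16830 in SCI14d. No day 14 array of either gene reached the lowest control, and the differences from CTR were -2.86 ± 0.42, adjusted p = 0.000242 and -0.99 ± 0.17, adjusted p = 0.0015. The transporter Slc16a1, which carries lactate and ketone bodies, was also retained (-0.91 ± 0.16, adjusted p = 0.00147 against CTR). Oxct1, the enzyme that commits ketone bodies to oxidation, was partly returned. It rose from 1277, 3363 and 6319 to 4313, 8060 and 13830 (1.53 ± 0.28, adjusted p = 0.000446) and remained below all CTR arrays, which held 16890, 21590 and 24100 (-1.35 ± 0.28, adjusted p = 0.00756 against CTR).

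The regulators of mitochondrial genes behaved differently among themselves. Of 16 PGC-1, ERR and PPAR regulators 10 were lower than CTR on day 3 and 3 on day 14. Perm1, a muscle partner of PGC-1 and ERR, had 4224, 5199 and 6380 in CTR, 749, 834 and 2854 in SCI3d and 256, 1490 and 2112 in SCI14d. Esrra, the receptor ERR alpha, had 2236, 3830 and 4505 in CTR, 1103, 1384 and 1738 in SCI3d and 849, 1588 and 2205 in SCI14d. Every day 14 array of both lay below every control, at -2.19 ± 0.41, adjusted p = 0.00254 and -1.19 ± 0.19, adjusted p = 0.000423 against CTR, and the changes since day 3 were -0.03 ± 0.41, adjusted p = 0.973 and 0.11 ± 0.19, adjusted p = 0.761. The coactivator Ppargc1a, in contrast, was classed as returned, from 166, 323 and 679.5 to 458, 738 and 1814 with CTR at 549, 918 and 1450 (1.16 ± 0.37, adjusted p = 0.0311). That call was not made under every scaling and was lost without any of 6 single arrays. A difference in change between Ppargc1a and the others was not tested.

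Of 69 genes of the respiratory chain and ATP synthase 30 were lower than CTR on day 3 and 23 on day 14, with medians of -0.34 and -0.44. Between the days 4 rose and 1 fell (1 and 0 under all 4 scalings), against 10.7% and 6.82% of all genes. The direction followed the scaling: 1 rose and 21 fell after median centring, 12 and 0 after quantile normalization, and 14 and 0 after scaling to Gapdh. Of the 30, 3 returned, 1 partly returned, 11 were retained and 15 are undetermined. On day 14, 2 of the 69 were lower than CTR under all 4 scalings, and 21 were so on day 3. Ndufa8 of complex I was retained at 6122, 10480 and 12840 on day 14 against 13980, 14870 and 18090 in CTR, and Ndufs1, another complex I subunit, was partly returned, from 4305, 7099 and 9968 to 7631, 11090 and 15460 with CTR at 13040, 18150 and 19680. Both calls against CTR (-0.64 ± 0.15, adjusted p = 0.0137 and -0.69 ± 0.18, adjusted p = 0.0322) were lost under another scaling.

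Fat oxidation stayed low in part. Of 20 genes 7 were lower than CTR on day 3 and 9 on day 14 (5 and 3 under all 4 scalings), and between the days 5 fell and 1 rose (1 and 0 under all 4 scalings), with medians against CTR of -0.40 and -0.75. Hadhb, the beta subunit of the trifunctional enzyme, was not called on day 3 and was lower on day 14, with 28320, 32070 and 39900 in CTR, 24430, 28660 and 35130 in SCI3d and 14090, 20130 and 28560 in SCI14d (-0.55 ± 0.15, adjusted p = 0.0131). This fall was not called after scaling to Gapdh (-0.36, adjusted p = 0.104) or with the 12 arrays alone (-0.55, adjusted p = 0.0724). Etfb, which passes electrons from fat oxidation to the chain, was retained (-0.80 ± 0.17, adjusted p = 0.008 against CTR). Fatty acid supply was split as well. Lpl, the lipase that frees fatty acids from lipoproteins, had 27270, 31120 and 33140 in CTR, 8030, 11020 and 22550 in SCI3d and 7509, 12900 and 20380 in SCI14d. Fabp3, the fatty acid carrier of muscle, had 39110, 44420 and 57790 in CTR, 5777, 13870 and 39080 in SCI3d and 6837, 16430 and 34330 in SCI14d. Both stayed below every control on day 14 (-1.22 ± 0.26, adjusted p = 0.00798 and -1.63 ± 0.37, adjusted p = 0.0128 against CTR). Vldlr, a receptor for triglyceride-rich lipoproteins, came back from 1396, 2210 and 3742 to 2932, 4496 and 6514 with CTR at 3979, 4496 and 5498 (0.96 ± 0.20, adjusted p = 0.00169). G0s2, an inhibitor of lipolysis, was partly returned, from 87.0, 197 and 2072 to 615, 772 and 2517 with CTR at 2921, 6115 and 9730 (2.04 ± 0.65, adjusted p = 0.0334 from day 3, not under every scaling, and -2.52 ± 0.65, adjusted p = 0.0273 against CTR). The list of 14 adipocyte markers holds Lpl itself and also Slc2a4, so that it is no measure separate from Lpl. Its summed signal was 94290 to 151900 in SCI3d, 97430 to 131100 in SCI14d and 151000 to 184800 in CTR. Of the 14, 8 were lower than CTR on day 3 and 3 on day 14. The part of fat cells in these values was not tested.

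Among other muscle genes, Mettl21c, a lysine methyltransferase of muscle, kept nearly all of its loss. It had 5834, 8111 and 9756 in CTR, 574, 832 and 984 in SCI3d and 482, 1105 and 2275 in SCI14d, without overlap with CTR on day 14 (-2.94 ± 0.43, adjusted p = 0.000242). The 76 retained genes that were raised included regulators and contractile genes. Mybph, a myosin binding protein of fast and remodelling fibres, had 1336, 2115 and 5835 in CTR, 9307, 36430 and 49090 in SCI3d and 1419, 29960 and 38410 in SCI14d. On day 14, 4 rats were at 28140 or more, above every control, and SCI14d replicates 2 and 4 were within the control range at 3231 and 1419 (2.55 ± 0.57, adjusted p = 0.0106 against CTR). The same 2 replicates were the lowest of day 14 for Hspb1, Flnc and Ankrd2. Runx1, a transcription factor that rises in denervated muscle, had 1187, 1864 and 2311 in CTR, 2544, 7544 and 15330 in SCI3d and 1756, 4778 and 13320 in SCI14d, above every control in 5 of 6 rats on day 14 (1.43 ± 0.40, adjusted p = 0.0422, lost without any of 9 single arrays). Tnnt3, the fast troponin T, and Myf6, a myogenic factor of mature fibres, were retained at 1.72 ± 0.44, adjusted p = 0.0246 and 0.60 ± 0.16, adjusted p = 0.0314 against CTR, the latter not under every scaling. Tnnt3 ran from 1941 to 37930 in CTR and from 25900 to 44840 in SCI14d, with 2 of 6 day 14 arrays above every control. Its call was lost without CTR replicate 1 or 6 or SCI14d replicate 6. Tnnt3 is also among the markers of adjacent fast muscle described further on. E2f8, a repressor of the E2F family, was retained at 2.79 ± 0.63, adjusted p = 0.0124 on low signals of 50.8, 176 and 591 against 5.38, 34.9 and 58.6 in CTR.

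**Figure D5:**
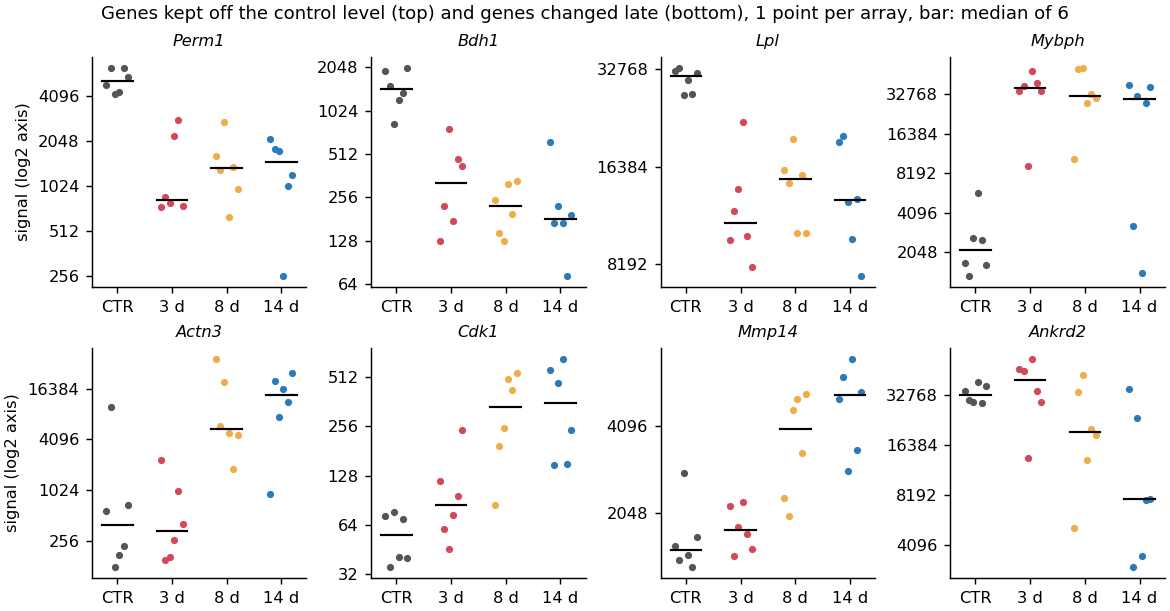
Signals of 8 genes on each array of CTR, SCI3d, SCI8d and SCI14d (y axis, linear signal on a log2 axis), with 1 point per rat and a bar at the median of 6. Perm1, Bdh1 and Lpl stayed below every control on day 14 and Mybph above the controls in 4 of 6 rats. Actn3, Cdk1 and Mmp14 were not called against CTR on day 3 and were higher on day 14, and Ankrd2 lay below every control in 5 of 6 rats on day 14.

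Other genes were called only later. In all 152 genes were not called on day 3 and on day 14 were called against both SCI3d and CTR in the same direction, 90 higher and 62 lower (48 under all 4 scalings). Racgap1, Mmp2, Ctsk, Gsr, Cdkn3 and Ankrd2 each lost the call against CTR without certain single arrays. Of 32 cell cycle genes 18 rose between the days (15 under all 4 scalings) and 0 fell, and on day 14 12 were higher than CTR, with medians against CTR of -0.09 on day 3 and 1.30 on day 14. Cdk1, the kinase that drives mitosis, had 35.1, 55.2 and 76.5 in CTR, 45.4, 84.3 and 242 in SCI3d and 149, 358 and 664 in SCI14d. Racgap1, which acts in the division of the cell body, had 24.9, 51.7 and 94.2 in CTR, 6.78, 30.3 and 180.2 in SCI3d and 108, 312 and 613 in SCI14d. Cdkn3, a phosphatase of cyclin-dependent kinases, had 35.6, 60.5 and 105 in CTR, 10.3, 43.5 and 79.5 in SCI3d and 112, 421 and 1013 in SCI14d. All 6 day 14 arrays were above every control in the 3 genes, and 3 of 6 were above every day 3 array for Cdk1, 4 for Racgap1 and 6 for Cdkn3. The rises from day 3 were 1.80 ± 0.48, adjusted p = 0.0107, 3.28 ± 0.63, adjusted p = 0.000619 and 3.52 ± 0.60, adjusted p = 0.000184. The other probe set of Racgap1 gave 1.12 and was not called. Cdc20, the activator of the anaphase-promoting complex, rose by 2.22 (adjusted p = 0.00123) on its brightest probe set, while the other 4 ran from -0.04 to 1.32 and none was called, and Prc1, which bundles spindle microtubules, was already called on day 3 and rose further (1.71 ± 0.54, adjusted p = 0.0324, not under every scaling). These signals are low: 9 of the 32 genes had a mean under the 40th percentile of all probe sets, Bub1b among them with 13.3, 17.4 and 35.4 in SCI3d and 27.9, 104 and 184 in SCI14d.

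Genes of the connective tissue rose in the same interval. Between the days 10 of 19 collagens rose (8 under all 4 scalings), 16 of 25 matrix glycoproteins (5, and 10 as deposited without SCI14d replicates 2 and 4), 10 of 23 matrix proteases, inhibitors and cross-linkers (8) and 8 of 12 fibroblast markers (6), and none of these lists had a gene that fell. The fibroblast markers are in part collagen and matrix genes, with Lum, Postn and Fap among them, so that they are no separate measure. Against CTR on day 14, 6 collagens, 1 matrix glycoprotein, 6 proteases and cross-linkers and 3 fibroblast markers were higher. Mmp14, a membrane-bound collagenase, had 1323, 1521 and 2815 in CTR, 1449, 1778 and 2229 in SCI3d and 2864, 5224 and 7008 in SCI14d. Mmp2, a gelatinase that Mmp14 activates, had 2438, 3791 and 10370 in CTR, 2378, 4020 and 4576 in SCI3d and 4986, 8500 and 15610 in SCI14d. All day 14 arrays of both were above all day 3 arrays, and those of Mmp14 also above all controls, with rises of 1.40 ± 0.29, adjusted p = 0.00154 and 1.35 ± 0.29, adjusted p = 0.00184. The other probe set of each was not called, at 1.27 for Mmp14 (adjusted p = 0.0628) and 0.24 for Mmp2. Lox, which cross-links collagen, rose by 1.64 (adjusted p = 0.0184, and 1.36, adjusted p = 0.0615 without SCI14d replicate 4), the collagen-degrading cathepsin Ctsk by 1.29 (adjusted p = 0.00396) and Fap, a protease of activated fibroblasts, by 1.86 (adjusted p = 0.00298).

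Other matrix genes were first lowered. Col14a1, a collagen that organizes fibrils, had 2705, 3285 and 7842 in CTR, 1030, 1298 and 3403 in SCI3d and 3532, 7277 and 10780 in SCI14d, and Lum, the proteoglycan lumican, had 6993, 8601 and 14010 in CTR, 3017, 3846 and 7590 in SCI3d and 9599, 16680 and 22040 in SCI14d. In both all day 14 arrays were above all day 3 arrays and none was below the lowest control (2.18 ± 0.32, adjusted p = 2.81e-05 and 1.85 ± 0.36, adjusted p = 0.000781). Sfrp4, a secreted Wnt inhibitor, was lower than CTR on day 3 and higher on day 14, 1 of 2 genes called on both sides of the control level. It had 666, 1720 and 4217 in CTR, 431, 593 and 1895 in SCI3d and 3658, 7300 and 17760 in SCI14d (3.43 ± 0.39, adjusted p = 3.6e-07 from day 3, 2.09 ± 0.39, adjusted p = 0.00254 against CTR). Its other probe set gave 0.47 from day 3 and was not called. The summed signal of the fibroblast markers was 96260 to 265800 in CTR, 102100 to 165500 in SCI3d and 177800 to 266900 in SCI14d, so that the days did not overlap while the controls overlapped both. Of 19 macrophage markers 2 rose, also under all 4 scalings, a share near the 10.7% of all genes, and 0 fell: Cd74, the invariant chain of antigen presentation, by 1.27 (adjusted p = 0.000939), and Adgre1, a surface receptor of macrophages, by 1.68 (adjusted p = 0.00359). The summed macrophage signal was 41720 to 114000 in SCI3d and 38590 to 108100 in SCI14d.

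Actn3, the actinin of fast fibres, had the largest rise of any called gene above the 40th percentile of signal. It had 123, 397 and 9935 in CTR, 150.4, 331 and 2331 in SCI3d and 905, 13720 and 25100 in SCI14d (4.44 ± 0.89, adjusted p = 0.000927). In 5 of 6 rats it was above every day 3 array on day 14, SCI14d replicate 1 was not, and 1 control was at 9935. Of 7 markers of adjacent fast muscle Actn3 was the only one called, and 6 of 7 had a higher mean on day 14. Their summed signal was 53440 to 93100 in SCI3d, 70010 to 137500 in SCI14d and 36300 to 124500 in CTR, with overlap of all groups. The mean log2 signal of the 7, Actn3 included, was 10.79 to 12.5 in SCI3d and 10.34 to 13.66 in CTR. In SCI14d it was 10.33 in replicate 1, the array low for Actn3, and 12.965 or more in the others, above every day 3 array. Fast muscle taken along with the soleus was not tested. The fold changes of the 12 slow-fibre contractile genes ran from -0.48 to 0.11 with a median of -0.33, and limma called none of them as deposited. After median centring 8 fell, and after quantile normalization or scaling to Gapdh 0. Against CTR on day 14, 1 was lower and 0 of the 12 had a higher mean. Slow myosin Myh7, which marks the soleus, was bright in every group, at 51120, 64120 and 86080 in SCI3d, 37780, 54080 and 66600 in SCI14d and 54690, 63030 and 87510 in CTR.

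Late falls were fewer. Kcnj11, a pore subunit of the ATP-sensitive potassium channel, had 4291, 5190 and 6651 in CTR, 3600, 4825 and 8263 in SCI3d and 1634, 1915 and 2235 in SCI14d, with all day 14 arrays below both other groups (-1.42 ± 0.22, adjusted p = 6.11e-05). Ddit4, an inhibitor of mTOR, fell from 852, 914 and 1575 to 427, 579.6 and 721 with CTR at 685, 1465 and 1588 (-0.92 ± 0.21, adjusted p = 0.00341). Ankrd2, a stretch-responsive protein of slow fibres, had 29120, 32440 and 38960 in CTR, 13510, 40010 and 54010 in SCI3d and 2977, 7652 and 35650 in SCI14d. On day 14, 5 of 6 rats were below every control, 1 was within the control range, and the fall of -1.93 ± 0.47, adjusted p = 0.00555 was not called without SCI14d replicates 2 and 4 (-1.20, adjusted p = 0.104). By their medians the late genes were already off the control level on day 8, though late genes called on day 8 were not counted. The median fold change of the late genes against CTR was 0.87 on day 8 and 1.15 on day 14 for those that rose and -0.52 and -0.65 for those that fell. Between day 8 and day 14 limma called 0 probe sets, with 2717 at an unadjusted p under 0.05.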

How the data were processed

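Total RNA of whole soleus was hybridised to Affymetrix Rat Genome 230 2.0 arrays, 1 rat per array. The authors made the deposited signals with Microarray Suite (MAS5), which subtracts background, summarises the probes of a set and scales every array to a common trimmed mean. The values are linear intensities, deposited without detection calls, and the authors' filter on such calls was not applied here. The labels and the paper's methods give different amounts of starting RNA.

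Of 31099 probe sets 57 controls were left out, and log2 signals of all 36 arrays (6 groups of 6) were fitted in limma 3.58.1 (R 4.3.3) with a trend in the moderated variance, two-sided, with Benjamini-Hochberg adjustment over 31042 probe sets at 0.05. Probe sets were named from the platform annotation (20826 with 1 symbol, 436 with several, 9780 with none), giving 14217 genes, each by its brightest probe set. Single genes were also compared by exact permutation tests of the mean log2 signals over all 924 arrangements of 6 and 6 arrays (two-sided). Promoters were read from RefSeq (GRCr8). Scripts were tested on simulated data, and figures were drawn in Python 3.11.15 with matplotlib 3.10.9.

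Named genes were the 15 highest and 15 lowest fold changes from day 3, the 8 highest and lowest of each class above the 40th percentile of signal, up to 5 per list with the smallest p from day 3 (and up to 3 against CTR), and genes that the study names. From these 84 were described with all alternatives, and Ptgs2, Il1b, S100a9 and Myh7 without. Members, lists and genes were chosen with earlier results of these data known. Alternatives were 3 other scalings, an offset of 32, a filter on dim probe sets, no variance trend, array weights, fewer arrays, the replicate block, the methods' t-test, other probe sets and leaving out arrays.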

Additional observations from a re-analysis of the deposited data

Results flagged for a closer look

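Within the groups of 6 arrays, 252 groups of values (84 genes in CTR, SCI3d and SCI14d) were searched for a single array far from the others, and chance flags about 1 in 20 such groups, and 12 were found. In SCI14d, replicate 4 was far below the other arrays for Slc2a4 (7989), Etfb (5833) and Perm1 (256.3), replicate 1 far below for Actn3 (904.7) and replicate 2 far above for Asb2 (16210). In SCI3d, replicate 3 was far above for G0s2 (2072) and far below for Mybph (9307), replicate 4 far below for Igf2r (1797) and replicate 6 far above for Sfrp4 (1895). Among the controls, replicate 3 was far above for Mmp14 (2815) and Lum (14010), and replicate 6 far above for Myog (4294).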

How the results depend on the processing

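Counts are of probe sets. With the replicate number as a block, 4199 were called (2573 higher, 1626 lower) against 4014 without it. The deviations of same-numbered SCI3d and SCI14d arrays correlated between -0.117 and 0.052, so that the arrays share only a number. Quantile normalization gave 1496 higher and 42 partly returned (46.2% of calls higher). Centring each array on its median gave 1074 higher, 3520 lower and 406 late (23.4% higher). Scaling to Gapdh gave 454 lower, 1468 returned, 34 partly returned and 1571 undetermined (88.4% higher against 61.8% as deposited). Partly returned were 104 without the dimmest 40% of probe sets, 32 without the intensity trend and 115 with array weights, which also gave 898 retained. The 12 arrays alone (18 with CTR) gave 1825 called, 1121 higher, 704 lower, 1140 returned, 19 partly returned and 110 late. The methods' t-test gave 6639 called at an unadjusted p under 0.05, with 4265 higher, 2374 lower, 456 partly returned, 1768 retained and 1187 late, and after Benjamini-Hochberg adjustment 1181 called, 653 higher, 528 lower, 712 returned, 8 partly returned, 151 retained and 40 late. With 1 probe set per gene 1304 were undetermined. Without SCI14d replicates 2 and 4, a setting chosen after seeing the data, 2485 were called, 1428 higher, and 36 partly returned, and by gene list the falls numbered 28 (31 with all arrays) for the proteasome, 18 (21) for ribosome biogenesis, 3 (11) for chaperones, 1 (6) for stretch-responsive genes and 1 (6) for ribosomal proteins, and the rises 14 (18) for the cell cycle, 7 (10) for collagens and 10 (16) for matrix glycoproteins. With the GAPDH 3' to 5' ratio as a covariate, also chosen after seeing the data, 4197 were called. The causes of these shifts were not tested.

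Leaving out 1 array at a time gave 3046 to 4211 called, 1831 to 2664 higher, 1196 to 1606 lower, 1593 to 2390 returned, 1882 to 2860 undetermined, 23 to 81 partly returned, 202 to 764 retained and 93 to 365 late. The late count of 216 moved by over 1.5 times without CTR replicate 1 (93), 2 (118) or 6 (120) or SCI14d replicate 2 (365), 3 (126), 4 (101) or 6 (102). The 64 partly returned moved as far without CTR replicate 1 (28), 2 (27), 5 (38) or 6 (31) or SCI14d replicate 3 (26), 4 (31), 5 (26) or 6 (23). Of 168 results for single genes (84 genes from day 3 and against CTR), 93 kept direction and call in all alternatives, 57 lost the call in at least 1, 18 gained it in at least 1, and 2 turned: Inhba was at -0.15 and Cdc20 at -0.04 on another probe set, neither called. Leaving out 1 array ended some calls. Against CTR on day 14 this held for Runx1 and Gsr (9 arrays each, adjusted p up to 0.131 and 0.097), Racgap1 (8, 0.0738), Ndufs1 and Myf6 (7 each, 0.0927 and 0.0908), Ctsk (6, 0.0909), Mmp2 and G0s2 (5 each, 0.0748 and 0.0694), Ankrd2 (CTR replicate 1, SCI14d replicates 4 and 6, 0.0697), Tnnt3 (CTR replicates 1 and 6, SCI14d replicate 6, 0.0863) and Cdkn3 (CTR replicate 1, SCI14d replicate 4, 0.0542). From day 3 it held for Prc1 (7, 0.0766), Ppargc1a (6, 0.1), G0s2 and Slc4a1 (5 each, 0.0923 and 0.0956), Smad4 (SCI14d replicates 1 and 3, 0.0709), Tnmd (SCI3d replicate 2, 0.0598), Ndufs1 (SCI3d replicate 2, 0.0556) and Myog (SCI3d replicate 1, 0.0507). The other probe sets of Psmc4, Kars1, Sesn2, Flnc, Slc4a1, Slc2a4, Ppargc1a, Racgap1, Sfrp4, Mmp14, Mmp2 and Lox, and 2 of the 4 others of Igfbp5, moved from day 3 in the same direction but were not called. The small number of arrays limits the precision.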

Other observations

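Some single genes are given for their wide spread on day 14. Ptgs2, the inducible prostaglandin synthase, had signals of 31.0, 60.5 and 85.6 in SCI3d, 75.4, 1968 and 5905 in SCI14d and 35.4, 437 and 1016 in CTR (3.81 ± 1.13, adjusted p = 0.0215 in limma). Il1b, the cytokine interleukin 1 beta, had 80.8, 166 and 349 in SCI3d, 104, 1793 and 10860 in SCI14d and 75.9, 184 and 3169 in CTR (2.87 ± 0.97, adjusted p = 0.0443). S100a9, a calcium-binding protein of neutrophils, was not called, at 586, 2019 and 4346 in SCI3d and 1081, 12260 and 25400 in SCI14d (1.79 ± 1.01, adjusted p = 0.259), and at least 1 control lay above the day 14 median, with CTR at 154, 1013 and 23060. The 7 neutrophil markers summed to 455 to 32480 in CTR, 1132 to 6881 in SCI3d and 1885 to 38480 in SCI14d, so that all groups overlapped. Il1b and S100a9 were named after their values were seen, and no alternative settings were run for Ptgs2, Il1b or S100a9. Of 22 interferon response genes 4 rose and 1 fell (2 and 1 under all 4 scalings), and of 18 genes of the IL-6 family and JAK-STAT path 2 rose and 1 fell (0 and 0), against 10.7% and 6.82% of all genes. Postn, the matrix protein periostin, rose from 2581, 4093 and 9721 to 10560, 17590 and 31980 without overlap between the days (1.91 ± 0.51, adjusted p = 0.0111). Slc4a1, the anion exchanger of red blood cells, was higher than CTR on day 3 and fell from 268, 982 and 3189 to 89.7, 301 and 473 (-1.80 ± 0.56, adjusted p = 0.0289).

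The rest of the lists are given with the counts under all 4 scalings in brackets. Of all genes 10.7% rose and 6.82% fell (4.25% and 1.86%). A count near or below these shares is no result about its list. Of 18 stretch-responsive sarcomere and Z-disc genes 6 fell and 0 rose (4), Ankrd2 and Flnc among them, and without SCI14d replicates 2 and 4 1 fell. Of 17 fast-fibre contractile genes 3 rose (2), of 17 receptor, junction and denervation genes 4 rose and 1 fell (1 and 0), of 14 satellite cell genes 3 rose and 1 fell (0 and 0), and of 12 genes of polyamine metabolism 1 rose and 3 fell (0 and 0). Of 16 citrate cycle genes 8 were lower than CTR on day 3 and 4 on day 14, with 1 that rose between the days (0), and in the breakdown of branched-chain amino acids 5 of 18 were lower on day 3 and 1 on day 14, with 1 that rose (0). Of 22 autophagy and lysosome genes 1 rose and 2 fell (1 and 1), of 23 calcium handling genes 1 and 2 (0 and 1), of 19 glucocorticoid-responsive genes 2 and 2 (0 and 1), of 16 developmental fibre genes 2 and 2 (2 and 0) and of 21 AP-1 and immediate early genes 1 and 1 (0 and 1). The clock list had 1 of 17 genes that rose (1). Without SCI14d replicates 2 and 4, 0 glucocorticoid-responsive and 0 clock genes rose and 0 calcium handling genes fell. Among cell type markers 1 of 11 for T cells (0), 2 of 13 for smooth muscle (1) and 2 of 10 for Schwann cells (0) rose, and 1 of 5 for red blood cells (1) and 1 of 12 for muscle fibres (0) fell, while none of 15 endothelial markers was called in limma.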
